A study of Homo sapiens with 9 samples.

Results

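The urokinase plasminogen system was represented by 6 genes among the 19775 genes of the array: the protease genes PLAU and PLAT, the receptor gene PLAUR, the annexin gene ANXA2, and the serpin genes SERPINE2 and SERPINF1. They were chosen by gene symbol, with earlier results of these data known, and every probe set annotated to a member was read. Of the 14 such probe sets, 13 named a member alone and 1 was shared with another gene and was not assigned. All 6 genes passed the filter on dim signals. Total RNA of 3 human breast epithelial lines was hybridised to Affymetrix arrays, 3 arrays per line, 9 in all. MII is the line MCF-10AT1Kcl2, labelled carcinoma in situ. MIII is MCF-10A1h, labelled carcinoma, and MIV is MCF-10A1a, labelled a metastatic carcinoma. The lines descend from MCF-10A, a non-tumorigenic breast epithelial line, through cells carrying an activated HRAS and growth in mice, so an oncogenic RAS background is common to all 3. All were grown in the same medium, which held EGF at 20 ng/ml, insulin at 10 µg/ml, hydroxycortisone at 0.5 µg/ml, cholera toxin at 0.1 µg/ml and horse serum at 5%. The stated purpose was to list genes lost in MIV. Each stage is 1 line, so a difference between stages is a difference between single lines. Within each line the arrays are titled biological replicates, and nothing further is said of whether these were separate cultures. The p-values measure the spread between these replicates of 1 line.

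Plasmin is a broad protease that dissolves fibrin and cleaves matrix proteins and other protease precursors. It is released from its precursor plasminogen by the urokinase-type activator (uPA, from PLAU) and the tissue-type activator (tPA, from PLAT). uPA is held at the cell surface by its receptor uPAR (from PLAUR), while annexin A2 (from ANXA2) with its partner S100A10 binds plasminogen and tPA there. Serpins are suicide inhibitors that trap proteases. SERPINE2, protease nexin-1, inhibits uPA, tPA, plasmin and thrombin, whereas SERPINF1, known as PEDF, shares the serpin fold without inhibiting proteases and is secreted as an anti-angiogenic factor. In breast cancer, high uPA is a known marker of poor outcome.

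The signals below are the deposited MAS5 intensity values, whose trimmed mean is alike on every array. The pooled median over all probe sets and arrays was 69.3, and a signal under it is here treated as dim. A change is a difference of means of log2(signal + 18.3), given with its standard error from limma, so changes of dim genes are understated. A gene was called when its limma p, Benjamini-Hochberg adjusted over all 12594 genes tested, was under 0.05 and its change was at least 2-fold.

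Median signals were 69 to 71.7 in MII, 72.1 to 74.9 in MIII and 64.7 to 65.2 in MIV, and arrays of the same line correlated at r = 0.974 to 0.977 over probe sets. MIV replicate 3 had a mean signal of 2620 for the bioB hybridisation controls, against 823 to 1283 on the other arrays. Leaving it out changed no call of a member.

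PLAUR, PLAT, SERPINE2 and SERPINF1 had their highest mean in MIII, PLAU had it in MIV, and ANXA2 was level on its main probe set. From MII to MIII, 5 of the 6 members rose, namely PLAU, PLAUR, PLAT, SERPINE2 and SERPINF1, and none fell. Over all genes tested, 11.7% were called in that comparison, 6.17% higher and 5.55% lower in MIII. From MIII to MIV, PLAT, SERPINE2 and SERPINF1 fell and no member rose, where 12.7% of all genes were called, 7.79% lower and 4.95% higher in MIV. Between MIV and MII, PLAU and PLAT were called higher in MIV and no member lower, where 8.14% of all genes were called, 2.96% higher and 5.18% lower. The median change of the 6 members was 1.52 for MIII against MII, -1.08 for MIV against MIII and 0.51 for MIV against MII, and over all genes tested these medians were -0.02, -0.01 and -0.03. The comparisons share arrays, so a high MIII value enters both of the first 2. Because the members were chosen with earlier results known, the values over all genes are given for scale only. SERPINF1 was over the pooled median on 0 MII, 3 MIII and 1 MIV arrays, so it passed the filter through MIII, where it is high. Its part in these counts and medians, and in the counts of non-overlapping arrays below, is a description only.

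The arrays of the lines did not overlap for 6 of 6 members between MIII and MII, where this held for 55.3% of all genes. They did not overlap for 4 of 6 members between MIV and MIII, against 58.8% of all genes, or for 4 of 6 between MIV and MII, against 50.7%. An exact two-sided permutation test on 3 against 3 arrays cannot go below p = 0.1, and every member with non-overlapping arrays reached that value.

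**Figure D1:**
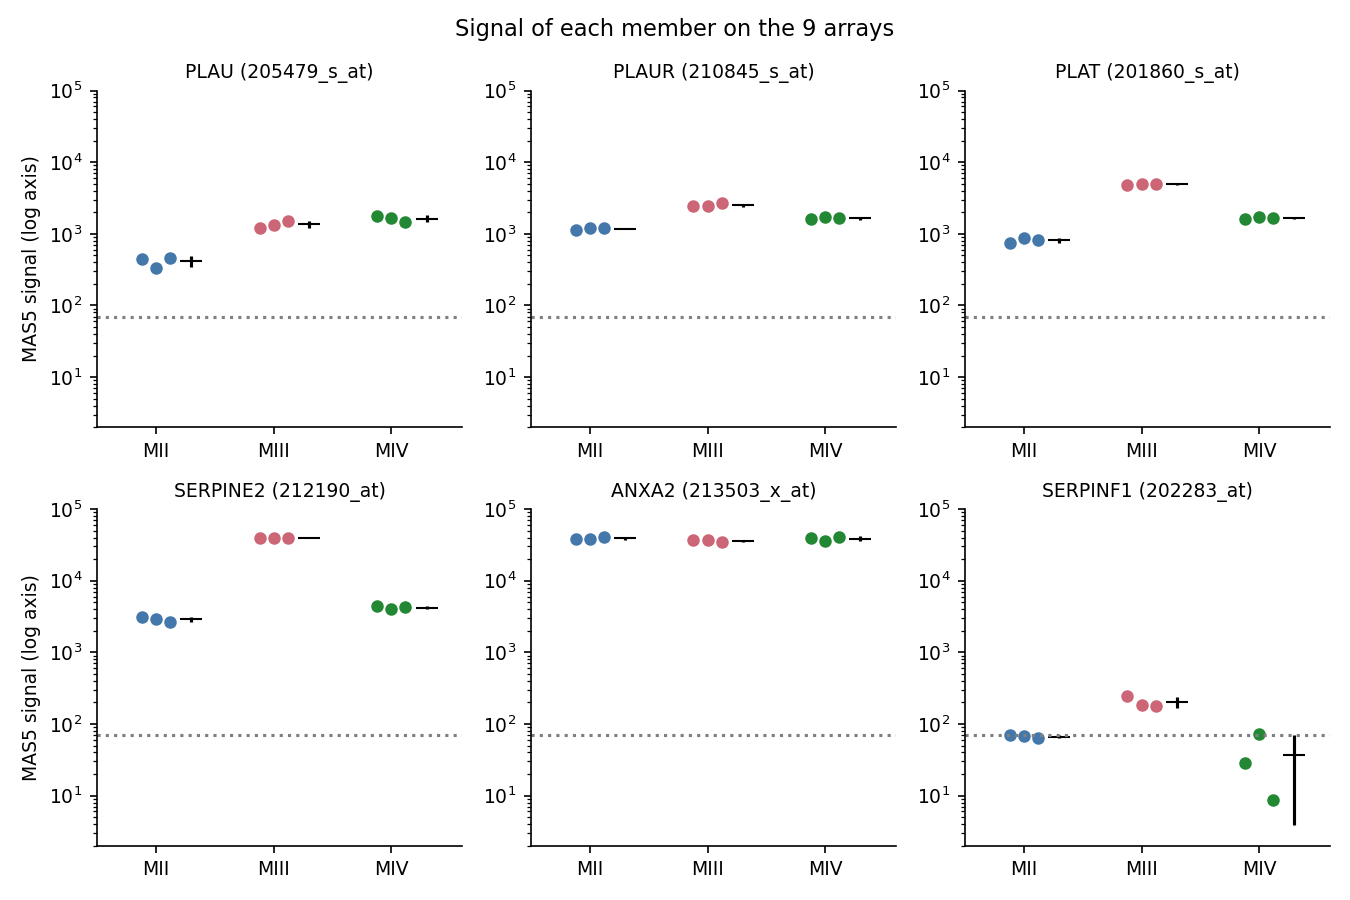
Signal of each member's main probe set on each of the 9 arrays, on a log axis, by line (MII, MIII, MIV); points are arrays, bars the mean ± SD of 3 arrays, and the dotted line is the pooled median of 69.3. SERPINE2 stands at 38882.6 to 39790.5 on the MIII arrays against 2624 to 4368.8 on the others, the PLAU arrays of MIV and MIII overlap, and ANXA2 is level across lines.

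The sequence just before each gene's start is shown for the members with a RefSeq promoter entry (assembly GRCh38.p14), because PLAUR, PLAU and SERPINE2 rose together in MIII while ANXA2 stayed level. Entries matched 4 of the 6 members, with 6 windows. PLAU and SERPINE2 had 2 windows each, of which the one with more motif matches is printed. The other held 1 CCAAT box for PLAU and 2 Sp1 motifs for SERPINE2. Each window is the 250 bases upstream of an annotated start, printed 5′ to 3′ on the gene's strand. The windows are chr10:73910882-73911131 (plus strand) for PLAU, chr19:43670170-43670419 (minus strand) for PLAUR, chr15:60397987-60398236 (minus strand) for ANXA2 and chr2:224031479-224031728 (minus strand) for SERPINE2. Capitals mark exact matches, on either strand, to the motifs searched.
PLAU: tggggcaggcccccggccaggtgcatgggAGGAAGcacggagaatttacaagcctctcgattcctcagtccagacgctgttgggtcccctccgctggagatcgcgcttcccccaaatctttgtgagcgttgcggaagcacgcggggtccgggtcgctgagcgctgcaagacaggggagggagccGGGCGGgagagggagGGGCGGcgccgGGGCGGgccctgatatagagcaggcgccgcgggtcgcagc
PLAUR: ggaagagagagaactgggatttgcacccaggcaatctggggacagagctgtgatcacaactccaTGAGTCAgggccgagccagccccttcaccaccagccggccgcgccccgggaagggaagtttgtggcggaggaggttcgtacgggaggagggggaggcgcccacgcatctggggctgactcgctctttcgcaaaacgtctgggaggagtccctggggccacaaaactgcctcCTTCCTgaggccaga
ANXA2: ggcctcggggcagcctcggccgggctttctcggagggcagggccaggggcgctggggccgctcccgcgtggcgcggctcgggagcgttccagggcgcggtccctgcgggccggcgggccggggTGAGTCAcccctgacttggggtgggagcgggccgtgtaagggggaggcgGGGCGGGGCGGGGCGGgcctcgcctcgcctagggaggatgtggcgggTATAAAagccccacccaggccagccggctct
SERPINE2: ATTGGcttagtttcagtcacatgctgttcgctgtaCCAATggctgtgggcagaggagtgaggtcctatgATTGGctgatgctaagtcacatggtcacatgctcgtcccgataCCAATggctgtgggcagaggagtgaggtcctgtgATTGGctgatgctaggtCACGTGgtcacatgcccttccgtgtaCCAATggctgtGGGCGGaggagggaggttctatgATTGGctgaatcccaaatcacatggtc
Of the 6 motifs, the AP-1 motif, spelled TGANTCA, matched PLAUR at 186 to 180 bases before the start and ANXA2 at 127 to 121. It occurred in 6.57% of the 35116 promoter windows of the table. The ETS-family motif PEA3, spelled AGGAAG, matched PLAUR at 15 to 10 and PLAU at 221 to 216 bases before the start, and occurred in 28.7% of windows. The Sp1 motif, spelled GGGCGG, had 3 matches in PLAU, 3 in ANXA2 that share their end bases, and 1 in SERPINE2, and occurred in 42.6% of windows. The CCAAT box, searched by those letters, had 7 matches in SERPINE2 and occurred in 32% of windows. The TATA box, spelled TATAAA, matched ANXA2 at 31 to 26 bases before the start and occurred in 10.7% of windows. The E-box, spelled CACGTG, matched SERPINE2 at 87 to 82 bases before the start and occurred in 6.34% of windows. No match of one motif overlapped a match of another. A match describes these letters only. The AP-1 motif was present in PLAUR, which rose in MIII, and in ANXA2, which was not called in any comparison.

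PLAU, which encodes uPA, was the member that stayed high in MIV. Its main probe set (205479_s_at) read 447.6, 332.6 and 458.8 on the MII arrays, 1216.9, 1311.5 and 1526.4 on the MIII arrays, and 1789.4, 1655.6 and 1459 on the MIV arrays. All MII arrays lay below all others, while MIII and MIV overlapped. The means were 413 ± 69.9, 1352 ± 159 and 1635 ± 166 (SD, n = 3 each). PLAU rose by 1.67 ± 0.12 from MII to MIII (limma adjusted p = 7.77e-08) and was higher by 1.95 ± 0.12 in MIV than in MII (limma adjusted p = 2.65e-08). The MIV against MIII change of 0.27 ± 0.12 missed the threshold (95% interval 0.0054 to 0.54, limma adjusted p = 0.0828, exact permutation p = 0.2). The other PLAU probe set (211668_s_at) read 327.1, 294.3 and 226.6 in MII, 978.9, 922.5 and 1069.9 in MIII, and 1405.7, 1176 and 1384.7 in MIV. On it the MIV arrays lay above the MIII arrays, by 0.41 (limma adjusted p = 0.0165), under the 2-fold minimum.

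PLAT, which encodes tPA, peaked in MIII. Its single probe set (201860_s_at) read 740, 870.2 and 829.2 in MII, 4850.9, 5008.2 and 4950.7 in MIII, and 1612.3, 1715.3 and 1679.4 in MIV. The lines were fully separated, in the order MII, MIV, MIII. The mean signal in MIII (4937 ± 79.6) was 6.07 times that in MII (813 ± 66.6), a rise of 2.58 ± 0.07 (limma adjusted p = 1.3e-12). PLAT fell by 1.55 ± 0.07 from MIII to MIV (limma adjusted p = 2.47e-10). At 1669 ± 52.3, MIV was still above MII, by 1.02 ± 0.07 (limma adjusted p = 3.36e-08). That last change sits at the 2-fold minimum: it was 0.96 without MII replicate 1 and 0.98 with an offset of 69.3, and was then not called.

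The 2 activators thus ended differently. PLAU was not called lower in MIV than in MIII, and PLAT was. Signals of different probe sets are not comparable, so no ratio of PLAU to PLAT is given.

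PLAUR, the uPA receptor, rose in MIII on 2 of its 3 probe sets. The brightest (210845_s_at) read 1146.5, 1186.5 and 1210.4 in MII, 2474.7, 2417.1 and 2654.5 in MIII, and 1587.7, 1740.6 and 1646.3 in MIV. No array of one line overlapped another line, again in the order MII, MIV, MIII. From 1181 ± 32.3 in MII the mean rose to 2515 ± 124 in MIII, a change of 1.08 ± 0.06 (limma adjusted p = 7.48e-09). The MIV mean of 1658 ± 77.1 lay between the other two. MIV differed from MIII by -0.60 ± 0.06 (limma adjusted p = 2.92e-06) and from MII by 0.48 ± 0.06 (limma adjusted p = 3.67e-05), both under the 2-fold minimum.

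The PLAUR probe sets disagreed on MIV against MII. A second probe set (211924_s_at), with means of 748 ± 160, 1812 ± 112 and 1263 ± 306 in MII, MIII and MIV, followed the brightest. The third (214866_at) read 709.3, 721 and 860.1 in MII, 957.2, 829.9 and 914 in MIII, and 509.3, 521.2 and 528.1 in MIV. Its MIV arrays were the lowest of all, and its MII and MIII arrays overlapped. On it, MIV was lower than MII by -0.53 (limma adjusted p = 0.000721), where the other probe sets gave 0.48 and 0.74. MIII exceeded MII on it by 0.24 (limma adjusted p = 0.069), so the call of PLAUR in MIII rests on the other 2. All 3 placed MIV below MIII, by -0.60, -0.54 and -0.77. The mean of all 3 probe sets gave a change of 0.86 from MII to MIII, under the 2-fold minimum.

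**Figure D2:**
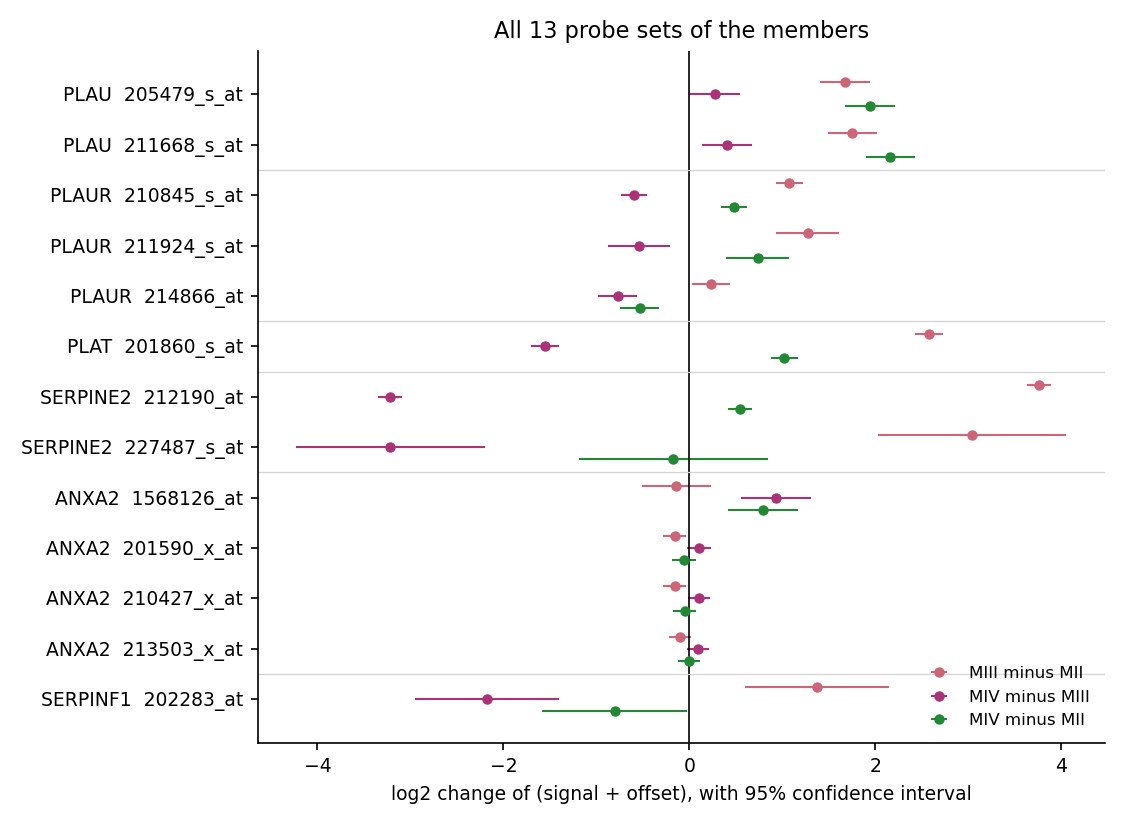
Change in log2(signal + 18.3), with its 95% interval from limma, for each of the 13 probe sets that name a member alone, in the 3 comparisons of lines. The 2 PLAU probe sets lie on the same side of 0 in all 3 comparisons, the 2 SERPINE2 probe sets in both comparisons with MIII but not for MIV against MII (0.54 and -0.17), while 1 PLAUR probe set lies on the other side of 0 for MIV against MII (-0.53) and 1 ANXA2 probe set lies above the other 3 for MIV (0.93 and 0.79).

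ANXA2, the surface co-receptor for plasminogen and tPA, was bright and level on its main probe set. Its main probe set (213503_x_at) read 38108.4, 37907.7 and 40342.4 in MII, 36627.5, 37113.8 and 35026.7 in MIII, and 39384.9, 35407.4 and 41228.7 in MIV. The MIII arrays were lower than the MII arrays, and the MIV arrays overlapped both. The changes were -0.10 ± 0.05 for MIII against MII (95% interval -0.21 to 0.02, limma adjusted p = 0.162), 0.09 ± 0.05 for MIV against MIII (-0.03 to 0.21, limma adjusted p = 0.183) and -0.01 ± 0.05 for MIV against MII (-0.12 to 0.11, limma adjusted p = 0.941). On this probe set the intervals leave room for changes well under 2-fold only. The main probe set and 2 others that run alike carry the suffix _x_at, which marks probes that can bind other transcripts, and ANXA2 has processed pseudogenes.

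The fourth ANXA2 probe set (1568126_at), without that suffix, was dim by comparison. It read 206, 205.9 and 235.6 in MII, 153.1, 197.7 and 240.1 in MIII, and 317.1, 436.3 and 418.3 in MIV. Its MIV arrays lay above all others. It differed by 0.93 between MIV and MIII (limma adjusted p = 0.00059) and by 0.79 between MIV and MII (limma adjusted p = 0.00295), both under 2-fold. Which transcript it reads was not given in the sources used here.

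SERPINE2 showed the widest range of the members. Its main probe set (212190_at) read 3100.1, 2937.2 and 2624 in MII, 38882.6, 39790.5 and 39166.5 in MIII, and 4368.8, 4020.1 and 4246.5 in MIV. The MIII arrays stood far above both other lines, and the MIV arrays just above the MII arrays. The mean in MIII (39280 ± 464) was 13.6 times that in MII (2887 ± 242), a rise of 3.76 ± 0.06 (limma adjusted p = 6.68e-15). From MIII to MIV (4212 ± 177) it fell by 3.22 ± 0.06 (limma adjusted p = 5.73e-14), which is 9.30-fold on the offset scale. Ranked by size of change among the 12594 genes, these were number 99 and number 149. MIV exceeded MII by 0.54 ± 0.06 (limma adjusted p = 5.75e-06), under the 2-fold minimum. The dimmer probe set (227487_s_at) read 3.5, 9.2 and 28.1 in MII, 120.3, 338.2 and 297.1 in MIII, and 27.7, 1.5 and 3.1 in MIV. Unlike the main probe set, it was over the pooled median on the MIII arrays only. It thus passed the filter through MIII, where it is high, and its changes are a description. They were 3.04 for MIII against MII, -3.21 for MIV against MIII and -0.17 for MIV against MII (limma adjusted p = 0.822 for the last).

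SERPINF1 was the dimmest member. Its probe set (202283_at) read 69.3, 67.1 and 62.8 in MII, 245.6, 185.5 and 178.3 in MIII, and 28.2, 72.4 and 8.8 in MIV. It exceeded the pooled median on 0 MII arrays, 3 MIII arrays and 1 MIV array. The gene thus passed the filter through MIII, where it is high, and its calls are a description. It rose by 1.37 ± 0.37 from MII to MIII (limma adjusted p = 0.0067) and fell by 2.18 ± 0.37 from MIII to MIV (limma adjusted p = 0.000186). With an offset of 69.3 the rise was 0.997 and was not called, and the MIV against MIII change was -1.40. With an offset of 1 the latter was -2.87, and it was called at either offset. MIV and MII overlapped, with a change of -0.80 ± 0.37 (95% interval -1.59 to -0.02, limma adjusted p = 0.096, exact permutation p = 0.4). Without MIV replicate 2, the array at 72.4, that change was -1.25 (limma adjusted p = 0.00671) and was called.

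**Figure D3:**
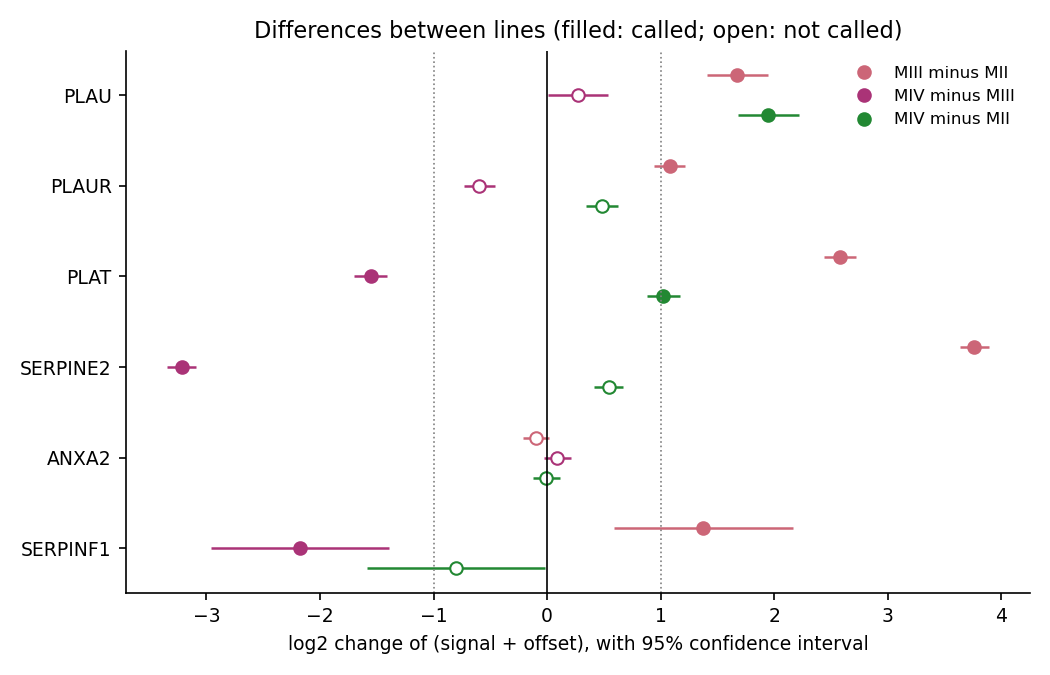
Change in log2(signal + 18.3), with its 95% interval from limma, for the 6 members in each comparison of lines; filled points were called, and dotted lines mark 2-fold. PLAT, SERPINE2 and SERPINF1 change sign between MIII against MII and MIV against MIII, while PLAU lies near 0 in MIV against MIII (0.27) and ANXA2 near 0 throughout.

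Other genes of the plasminogen axis were called in both directions. Of 25 further genes listed for it, 22 had a probe set and 18 were tested. Between MIII and MII 4 rose and 1 fell, 5 of 18 beside 11.7% of all genes. Between MIV and MIII 2 rose and 4 fell, 6 of 18 beside 12.7% of all genes. Between MIV and MII 2 rose and none fell, beside 8.14% of all genes. The list medians were 0.10, -0.04 and 0.01, beside -0.02, -0.01 and -0.03 over all genes. PLG, plasminogen itself, was under the pooled median on all 9 arrays.

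Among the surface proteins of the axis, S100A10, the annexin A2 partner, was bright in every line (34126 ± 1876 in MII, 27208 ± 1281 in MIII and 31815 ± 2273 in MIV) and was not called in any comparison. ENO1, a glycolytic enzyme that also binds plasminogen at the surface, gave 0.00 for MIV against MIII and was not called either. PLGRKT, a membrane receptor for plasminogen, was the exception, reading 1471 ± 97.6 in MII, 1464 ± 45.5 in MIII and 3170 ± 112 in MIV. It was called higher in MIV than in MIII (1.10 ± 0.06, limma adjusted p = 6.34e-09) and in MII (1.10 ± 0.06, limma adjusted p = 1.15e-08).

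A collagen receptor and a clearance receptor also had their highest mean in MIII. MRC2, which encodes a collagen receptor that associates with uPAR, read 679 ± 51.9, 1757 ± 91.9 and 357 ± 10.9 in MII, MIII and MIV. It rose by 1.35 ± 0.08 and then fell by 2.24 ± 0.08 (limma adjusted p = 1.39e-08 and 6.85e-11). LRP1, the endocytic receptor for protease and serpin complexes, read 71.4 ± 21.1, 183 ± 15.6 and 38.6 ± 27.1. Its rise of 1.19 ± 0.36 (limma adjusted p = 0.015) was not called without MII replicate 1 (limma adjusted p = 0.0589) or without MIII replicate 1 (limma adjusted p = 0.0521), while it fell by 1.96 ± 0.36 from MIII to MIV (limma adjusted p = 0.000431) and was still called lower in both cases. With the mean of all its probe sets both changes were under 2-fold, at 0.78 and -0.78.

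Proteases of the axis split. ST14, matriptase, a membrane protease that can activate pro-uPA, had changes of opposite sign to those of PLAT, SERPINE2, SERPINF1 and PLAUR in both comparisons with MIII: 3553 ± 340 in MII, 675 ± 66.0 in MIII and 3209 ± 232 in MIV. It fell by 2.36 ± 0.09 from MII to MIII and rose by 2.22 ± 0.09 from MIII to MIV (limma adjusted p = 5.08e-11 and 9.82e-11). CTSL, a lysosomal cysteine protease, read 4275 ± 347, 8255 ± 246 and 3339 ± 341, and fell by 1.31 ± 0.07 from MIII to MIV (limma adjusted p = 4.88e-09). The serpins SERPINI1, neuroserpin, which inhibits tPA, and SERPINA5, which inhibits uPA and protein C, both rose from MII to MIII, SERPINI1 by 1.30 ± 0.13 (limma adjusted p = 1.28e-06) and SERPINA5 from 93.1 ± 32.3 to 292 ± 56.3 (limma adjusted p = 0.000158). SERPINI1 stayed up in MIV (1.23 ± 0.13 against MII, limma adjusted p = 3.72e-06).

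**Figure D4:**
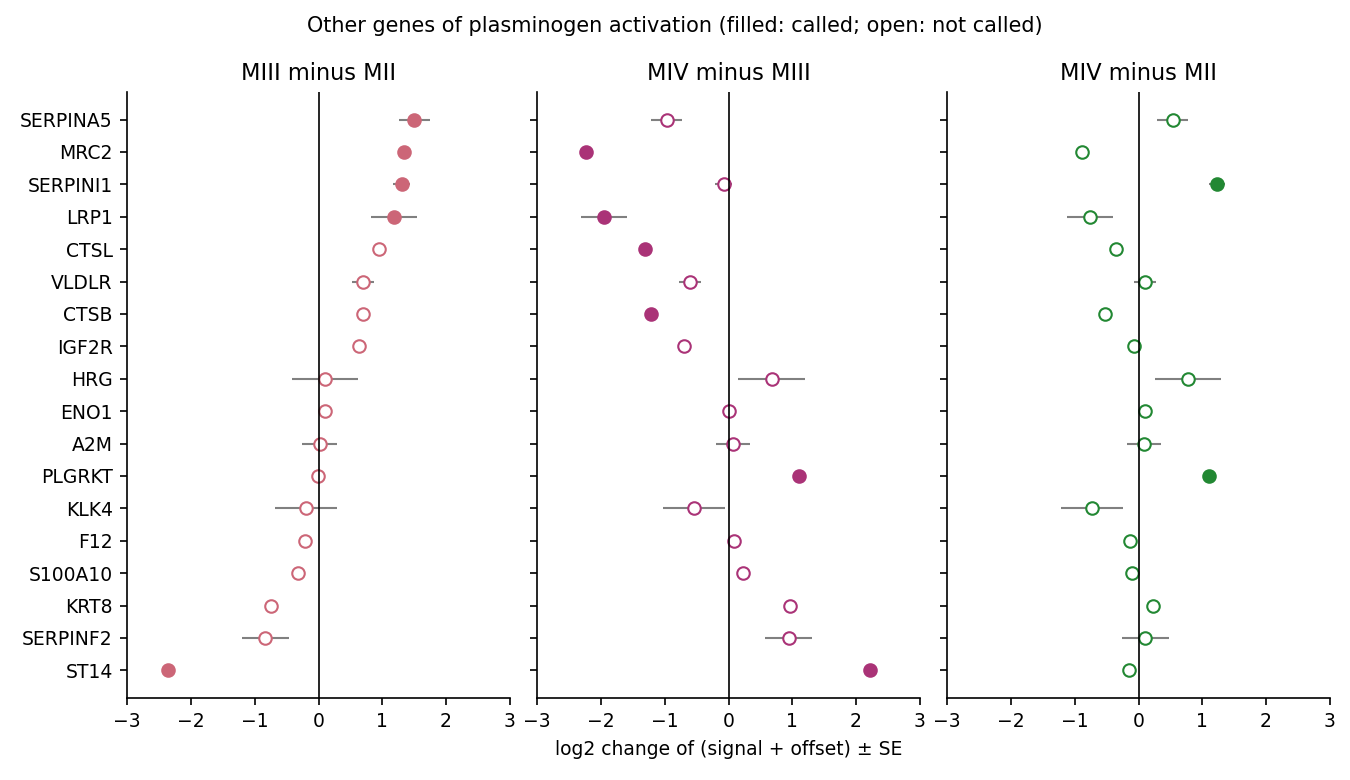
Change in log2(signal + 18.3) ± SE for the 18 tested genes of the plasminogen axis outside the 6 members, in the 3 comparisons of lines; filled points were called. ST14 and MRC2 lie far from 0 in opposite directions in both comparisons with MIII, PLGRKT is higher in both comparisons of MIV, and most others lie within 2-fold.

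Of 15 serpins outside clade B that are not members, 6 were tested. Between MIII and MII 5 rose and none fell, beside 11.7% of all genes called, with a median of 1.41 beside -0.02 over all genes. Between MIV and MII 3 rose, beside 8.14% of all genes called. Between MIV and MIII 2 fell (SERPINA1 and SERPINH1) and none rose, beside 12.7% of all genes called. Without MIII replicate 3, 4 were called, counted in either direction. SERPINA1, the elastase inhibitor, read 165 ± 35.1, 4809 ± 168 and 696 ± 41.8 in MII, MIII and MIV, so it rose by 4.74 ± 0.11 and then fell by 2.76 ± 0.11. On its probe set without a suffix the rise was 0.86, under 2-fold. SERPINA1 was among the 3 called higher in MIV than in MII (1.98 ± 0.11). That change was -0.57 on the probe set without a suffix and 0.92 with the mean of all its probe sets, and was called in neither case. SERPINA3, an inhibitor of chymotrypsin-like proteases, read 7441 ± 372, 23388 ± 1053 and 37335 ± 2661, up by 1.65 ± 0.06 in MIII and by 2.32 ± 0.06 in MIV over MII. SERPINH1, the collagen chaperone, read 3263 ± 371, 8075 ± 523 and 2271 ± 88.4.

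Of the other annexins, 8 were tested, and their calls went both ways. Between MIII and MII 2 rose and 1 fell, between MIV and MIII 1 rose and 2 fell, and between MIV and MII 1 fell. Of all genes, 11.7%, 12.7% and 8.14% were called in these comparisons. ANXA3 read 13654 ± 585, 3792 ± 318 and 11822 ± 714 in MII, MIII and MIV, so it fell by 1.85 ± 0.07 and then rose by 1.64 ± 0.07. ANXA6 ran the other way and was over the pooled median on the MIII arrays only (16.1 ± 9.8, 314 ± 68.1 and 7.1 ± 3.7), so it passed the filter through MIII alone. ANXA10 had its lowest mean in MIV, with changes of -3.30 ± 0.23 against MIII and -2.05 ± 0.23 against MII.

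uPAR has no cytoplasmic part and signals through partner proteins. Of 20 listed partners and relatives, 16 were tested: 4 rose and 1 fell between MIII and MII, 4 fell between MIV and MIII, and 1 rose and 2 fell between MIV and MII. The shares called over all genes were 11.7%, 12.7% and 8.14%, in the same order. The integrin subunit ITGA5, of the fibronectin receptor, read 682 ± 41.6, 2955 ± 108 and 1981 ± 93.2, and was up by 2.09 ± 0.07 in MIII and 1.51 ± 0.07 in MIV over MII. ITGAV, of the vitronectin receptors, read 2909 ± 155, 8228 ± 879 and 2852 ± 72.9, so it rose by 1.49 ± 0.07 and then fell by 1.52 ± 0.07. The cytokine co-receptor IL6ST rose by 1.94 ± 0.06 and then fell by 1.90 ± 0.06. LYPD3, a relative of uPAR in the same fold family, fell at each step, at 3143 ± 431, 1300 ± 180 and 391 ± 25.9.

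Among targets and substrates of plasmin and uPA, more were called lower than higher in MIV against MIII. Of 16 tested of 24 listed, 6 rose and none fell between MIII and MII (median 0.41), and 2 rose and 7 fell between MIV and MIII (median -0.76). Between MIV and MII 3 rose and 2 fell (median -0.19). Over all genes, 11.7%, 12.7% and 8.14% were called in these comparisons, with medians of -0.02, -0.01 and -0.03. In MIV against MIII, 7.79% of all genes were called lower and 4.95% higher. IGFBP5, an IGF-binding protein counted in the first 2 comparisons, passed the filter through MIII alone. Its MIV against MIII change of -3.48 was -0.86 with the mean of its probe sets, and was then not called. FN1, fibronectin, read 72.0 ± 18.9, 20521 ± 1295 and 785 ± 104, so it rose by 7.85 ± 0.13 and then fell by 4.68 ± 0.13. MMP2, gelatinase A, read 134 ± 39.7, 1656 ± 96.7 and 35.9 ± 17.1. TGFB1, whose latent form plasmin can activate, read 363 ± 41.2, 4383 ± 275 and 932 ± 62.0. IGFBP3, an IGF-binding protein cleaved by plasmin, fell by 4.51 ± 0.12 from MIII to MIV. VEGFA, an angiogenic factor that plasmin can release from matrix, was highest in MIV (1597 ± 136, 2062 ± 71.0 and 5337 ± 358), up by 1.73 ± 0.07 over MII. Other calls between MIV and MII depended on the probe set. With the mean of all probe sets, the TGFB1 change of 1.32 was 0.74 and the MMP2 change of -1.51 was -0.28. The FN1 change of 3.16 was 0.27 on its probe set without a suffix. None of these was then called.

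Receptors, heparan sulfate carriers and target proteases of SERPINE2 and SERPINF1 were called in both directions. Of 13 tested, 2 rose and 2 fell between MIII and MII, 2 rose and 5 fell between MIV and MIII, and 2 fell between MIV and MII, or 1 without MIV replicate 3. The all-gene shares called were 11.7%, 12.7% and 8.14%, in the same order. SDC2, a heparan sulfate proteoglycan, was over the pooled median on the MIII arrays only (14.6 ± 11.9, 961 ± 70.3 and 1.7 ± 0.8) and likewise passed the filter through MIII alone. PRSS8, prostasin, a membrane protease that SERPINE2 inhibits, read 1066 ± 132 in MII, 47.6 ± 6.8 in MIII and 1545 ± 128 in MIV. It fell by 4.04 ± 0.12 into MIII and rose by 4.57 ± 0.12 into MIV, each time with the opposite sign to SERPINE2.

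Of the factors known to regulate PLAU and PLAUR, 22 of 23 listed were tested. Between MIII and MII 1 rose and 1 fell, beside 11.7% of all genes called, and between MIV and MIII 1 rose, beside 12.7%. Between MIV and MII 2 rose and 3 fell, 5 of 22 beside 8.14% of all genes. Of these, ETS2 (-1.10) and FOSL2 (-1.01) were not called with the mean of their probe sets (-0.66 and -0.74), and neither was ETS1. ETV5, an ETS-family factor, read 1088 ± 58.5, 3008 ± 91.9 and 1686 ± 104, up by 1.45 ± 0.07 in MIII, or 0.88 with the mean of its probe sets. ETS1 was up by 1.45 ± 0.10 in MIV over MII, or 0.82 with that mean. FOS, a subunit of AP-1, rose by 1.26 ± 0.08 from MIII to MIV. EGR1, an immediate early factor, was up by 1.25 ± 0.06 and KLF4, an epithelial differentiation factor, down, at -1.83 ± 0.08, in MIV against MII.

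The genes with line means nearest to those of a member were found by the Euclidean distance between centred log2 means over the 3 lines, a description over 3 points that share their arrays. PLAU lay nearest to GPM6B (0.036), EPB41L2 (0.099) and C3 (0.13), the complement gene C3 reading 1040 ± 82.4, 2985 ± 300 and 3683 ± 270. PLAUR lay nearest to USP13 (0.0097), GAA (0.017) and ENG (0.022). PLAT lay nearest to IFIT3 (0.18), PANX2 (0.19) and PER3 (0.19). SERPINE2 lay nearest to SAMSN1 (0.13), OAS2 (0.16) and C1R (0.17), all 3 with MII and MIV means under the pooled median. SERPINF1 lay nearest to BMERB1 (0.027), PDE7B (0.033) and VSIG10L (0.064). Flat genes such as CTU2 and WDR18 lay nearest to ANXA2.

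**Figure D5:**
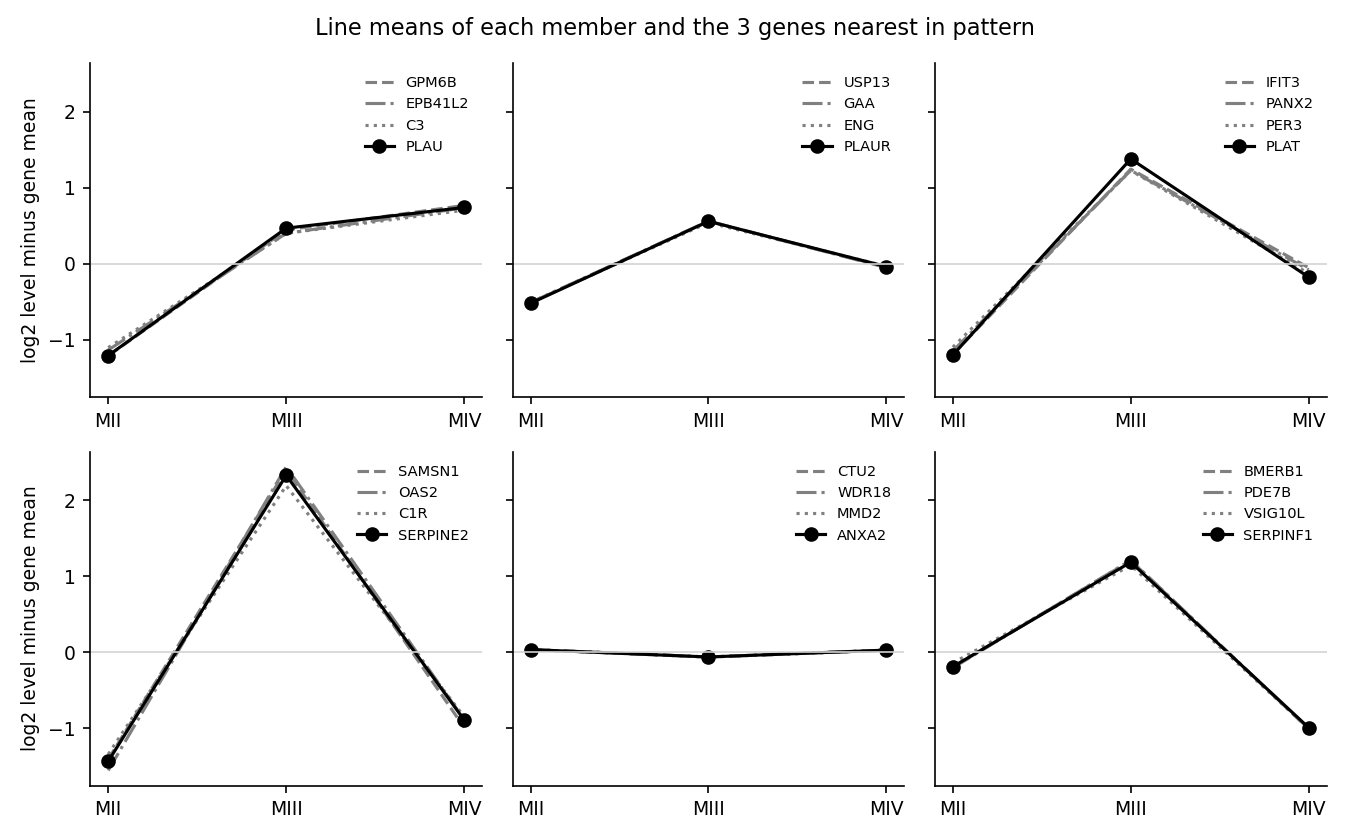
Centred log2(signal + 18.3) means of MII, MIII and MIV for each member and the 3 genes whose line means lie nearest to it. SERPINE2 and its neighbours share a peak in MIII, the PLAU neighbours stay high in MIV, and the ANXA2 neighbours are flat.

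Some fibroblast markers had their highest signal in MIII. Of 10 listed fibroblast markers, 7 were over the pooled median on all MIII arrays, against 3 in MII and 2 in MIV, and their summed signal was 1141.5 to 1197.3 in MII, 6530.7 to 6860.9 in MIII and 789.7 to 869.5 in MIV. Of 7 tested, COL3A1, DCN, LUM, THY1 and POSTN rose between MIII and MII and fell between MIV and MIII. Of all genes, 11.7% and 12.7% were called in these comparisons. COL3A1, LUM and POSTN exceeded the pooled median on the MIII arrays alone, and THY1 only on these and on MII replicate 1 (78.2). These genes thus passed the filter through MIII, where they are high, and their calls are a description. FAP, a fibroblast surface protease, read 678 ± 46.2, 405 ± 28.4 and 390 ± 37.5, with changes of -0.72 and -0.05, and COL1A1, a collagen chain, had changes of -0.18 and 0.06. Neither was called. POSTN, periostin, read 18.7 ± 12.3, 1645 ± 14.9 and 2.7 ± 1.6. DCN, decorin, rose by 4.76 ± 0.29 to 2511 ± 119 in MIII. COL1A2, PDGFRA and PDGFRB were under the pooled median on all 9 arrays. Between MIV and MII none of the 7 was called, beside 8.14% of all genes, or 1 without MII replicate 1. The part of these genes in the MIII levels of PLAT, SERPINE2 and SERPINF1 was not tested.

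Of 10 epithelial markers with a probe set, 9 were over the pooled median on all arrays of every line, and KRT19 was under it on all. CD14, CD79A and PECAM1, listed as leukocyte and endothelial markers, were also over it on all arrays. This rule alone therefore cannot establish the epithelial label. The summed signal of the 10 epithelial markers was 164833 to 172239 in MII, 113309 to 117540 in MIII and 163499 to 175926 in MIV. CDH1, E-cadherin, read 12055 ± 304, 1305 ± 32.7 and 7288 ± 149, so it fell by 3.19 ± 0.05 and then rose by 2.47 ± 0.05. EPCAM, an epithelial adhesion molecule, ran alike at 17233 ± 230, 3737 ± 74.5 and 18773 ± 2385. KRT14, a keratin, instead fell at each step, at 2155 ± 85.4, 957 ± 84.5 and 137 ± 20.4. It was the only epithelial marker of 9 tested that was called between MIV and MII (-3.82 ± 0.11), beside 8.14% of all genes. Between MIII and MII 3 fell and 6 were not called, beside 11.7% of all genes. Those not called were KRT5 (0.03), KRT7 (-0.14), EGFR (-0.21), KRT18 (-0.65), KRT8 (-0.75) and CDH3 (-0.80). Between MIV and MIII 3 rose and 1 fell, beside 12.7%. CDH3 was called higher in MIV than in MIII (1.03 ± 0.06), but not without MIII replicate 3 (0.995). Of 8 leukocyte and endothelial markers with a probe set, PTPRC, CD3D, VWF, CDH5 and KDR were under the pooled median on all 9 arrays, and CD14, CD79A and PECAM1 were over it on all. CD14, a monocyte receptor for bacterial lipopolysaccharide, read 1490 ± 58.3, 594 ± 29.9 and 323 ± 39.4 in MII, MIII and MIV. It fell by 1.30 ± 0.10 from MII to MIII (limma adjusted p = 7.98e-08) and was lower in MIV than in MII (-2.15 ± 0.10, limma adjusted p = 7.38e-10). The summed signal of the 8 was 1855 to 2085.2 in MII, 1031.8 to 1338.4 in MIII and 913.1 to 972.1 in MIV. CD79A and PECAM1 were not called. In RNA of whole cultures, fewer cells of a kind and less RNA per cell cannot be told apart.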

How the data were processed

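Total RNA of the MCF-10A-derived lines MII, MIII and MIV was hybridised to Affymetrix arrays, 3 per line. The authors deposited linear intensity values, computed with MAS5 per the submitters' processing notes, with no version or detection call given in the sources used here. After trimming to the middle 96%, each array's mean lay between 498.9 and 499.9, so the signals were not rescaled. There were 54675 probe sets, 62 of them controls. The array annotation gave 41091 probe sets 1 gene, 1801 several and 11721 none.

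Signals were tested as log2(signal + 18.3), the offset being the pooled 25th percentile. A gene was read from its probe set of highest mean, and was tested when at least 3 of 9 arrays exceeded the pooled median of 69.3. A group-means model with an intensity trend was fitted with limma 3.58.1 under R 4.3.3 to the 9 arrays together, leaving 6 residual degrees of freedom. The script was tested on simulated data. The same fit over all probe sets gave the changes of single probe sets. Errors are SDs over 3 arrays for signals and limma standard errors for changes, and the number of arrays limits the precision.

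The members and gene lists were chosen with earlier results of these data known. Within a list, the genes named came from the up to 4 called genes with the largest change per comparison. Not all of these were described: FPR1, SDC3, PLXDC2 and TFAP2A were called under that rule and left out. FOSL2 was named to show how its call, at the 2-fold minimum, depended on the choice of probe set, the processing and single arrays. The other genes named outside that rule (PLG, S100A10, ENO1, and the markers given as under or over the median) were chosen as known parts of the system or to check the labels, with their values seen. The 3 genes with the smallest distance of line means were named per member. The 15 analytical alternatives (offset, normalization, filter, choice of probe set, variance model, replicate block, arrays fitted, threshold) and the removal of each of 9 arrays in turn are covered at the close.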

Additional observations from a re-analysis of the deposited data

How the results depend on the processing

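The 3 members called for MIV against MIII stayed 3 whichever array was left out, as did the 5 for MIII against MII. The 2 called for MIV against MII ranged from 1 (without MII replicate 1) to 3 (without MIV replicate 2). For MIV against MII, 1 member was called with an offset of 69.3, 0 with probe sets without a suffix (PLAU and PLAT have none), 4 with no fold minimum and 0 under the stricter threshold of 4-fold with an adjusted p under 0.01. For MIII against MII, 2 were called with probe sets without a suffix and 2 at the stricter threshold. The sign turned for PLAUR in MIV against MII with the probe set without a suffix (-0.53) and for ANXA2 in MIV against MII with arrays set to the same median (0.039), the mean of all probe sets (0.17), the probe set without a suffix (0.79) and with an array left out (-0.054 to 0.056). SERPINF1 was not tested under a filter at the 75th percentile. Over all genes, 1604, 1025 and 1476 were called for MIV against MIII, MIV against MII and MIII against MII. These became 893, 535 and 810 with that filter, 6530, 5310 and 5946 with no fold minimum, and 515, 257 and 499 at the stricter threshold. With an offset of 69.3, 681 were called for MIV against MII. With the replicate number as a block, 1607, 1026 and 1483 genes and 3, 2 and 5 members were called. Arrays that share a number deviated together no more (r = -0.04 to 0.04) than others (-0.03 to 0.04), and 5 of 18 correlated best with their own number, so the numbers were not taken as a pairing. Counts in the gene lists moved by over 1.5 times in 65 of 720 cases, 41 of them under the 2 threshold settings. SERPINF1 was over the pooled median on 0, 3 and 1 arrays of MII, MIII and MIV, and its MIV against MIII change ranged from -2.87 to -1.40 over the alternatives.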
